A study of Homo sapiens with 4 samples.

Results

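Cohesin and condensin are the ring-shaped protein complexes that hold and shape chromosomes, and the transcripts of 10 of their subunits were followed in UMSCC74B cells given control shRNA or PRMT5 shRNA. The 10 genes were taken by name from the gene tables, 5 for cohesin (SMC1A, SMC3, RAD21, STAG1 and STAG2) and 5 for condensin (SMC2, SMC4, NCAPD2, NCAPG and NCAPH). All 10 names were found, each in a single row, among 29655 distinct gene names, and all 10 passed the filter on low values. UMSCC74B is an established cell line of head and neck squamous cell carcinoma (HNSCC). Its control group comprised 2 libraries of wild-type cells given a control shRNA plasmid, and the other group 2 libraries labelled PRMT5 KD, from cells given an shRNA plasmid against PRMT5, an enzyme that methylates arginines. The latter are called the KD-labelled libraries. Cells of both groups were in culture for 72 h after the plasmids were given, without antibiotic. The labels describe transfection of plasmids, whereas the methods of the study describe lentiviral particles, and the study names a single commercial product as its PRMT5 shRNA. No label says whether the replicates came from separate cultures, so the p-values measure the spread between these libraries, which may be technical.

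Each complex is built around a pair of long SMC proteins that meet at one end and carry an ATPase at the other, where a kleisin subunit closes the ring. In mitotic cohesin the SMC pair is SMC1A and SMC3, the kleisin is RAD21, and either STAG1 or STAG2 binds to it. Cohesin holds sister chromatids together until anaphase and forms chromatin loops in interphase, so cells need it throughout the cycle. In condensin the pair is SMC2 and SMC4. Condensin I adds the kleisin NCAPH with NCAPD2 and NCAPG, and condensin II adds NCAPH2, NCAPD3 and NCAPG2 to the same SMC pair. Condensin compacts chromosomes for mitosis, and the transcripts of several of its subunits are known to rise as cells pass through G2 and mitosis.

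All 5 condensin transcripts were higher in the KD-labelled libraries, whereas the 5 cohesin transcripts moved in different directions. NCAPH and NCAPG rose most, with log2 fold changes of 2.20 and 2.02. Among the cohesin subunits SMC1A was called higher, STAG1 was called lower, and SMC3, RAD21 and STAG2 were not called. Calls required a false discovery rate (FDR) under 0.05 together with a log2 fold change of 0.5 or more in either direction, by the quasi-likelihood test of edgeR with adjustment over all 11897 protein-coding genes tested. Over all those genes, 21.2% were called higher and 24.3% lower, 45.5% in all, so the single calls in each direction among 5 cohesin genes were near the background, and the 5 of 5 condensin genes called higher were above it. Scaling by total counts alone turned the balance over all genes from 2522 higher and 2896 lower to 3509 higher and 2200 lower, and put the median over all genes at 0.17 on the log2 scale instead of -0.0074. Under that scaling 3 cohesin members were called, all higher (SMC1A, SMC3 at 0.57 and RAD21 at 0.57), and all 5 condensin members kept their calls.

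The windows upstream of 3 members are shown as the genes with the largest rise (NCAPH and NCAPG) and the only called fall (STAG1). Each is the 250 bases before the transcription start in RefSeq on GRCh38.p14, written 5' to 3' along the gene, at chr4:17810729-17810978 on the plus strand for NCAPG, chr2:96335516-96335765 on the plus strand for NCAPH and chr3:136752379-136752628 on the minus strand for STAG1. Capitals mark the letters of 3 motifs, searched on both strands in the window from 250 bases before to 50 bases after the start. These were the CHR element (TTTGAA or TTCGAA) and the CCAAT box (CCAAT), both common in promoters of mitotic genes, and an E2F motif (TTTCCCGC, TTTCGCGC, TTTGCCGC or TTTGGCGC).
NCAPG: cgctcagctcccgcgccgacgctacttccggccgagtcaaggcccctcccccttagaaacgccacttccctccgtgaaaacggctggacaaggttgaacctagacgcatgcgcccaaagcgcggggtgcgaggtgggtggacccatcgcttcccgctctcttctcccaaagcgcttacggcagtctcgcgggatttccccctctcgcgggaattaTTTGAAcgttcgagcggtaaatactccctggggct
NCAPH: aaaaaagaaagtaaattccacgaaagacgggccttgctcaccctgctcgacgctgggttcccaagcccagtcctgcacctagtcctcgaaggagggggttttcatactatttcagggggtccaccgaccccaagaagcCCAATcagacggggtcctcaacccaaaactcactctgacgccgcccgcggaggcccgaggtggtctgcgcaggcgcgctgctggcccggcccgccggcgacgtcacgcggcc
STAG1: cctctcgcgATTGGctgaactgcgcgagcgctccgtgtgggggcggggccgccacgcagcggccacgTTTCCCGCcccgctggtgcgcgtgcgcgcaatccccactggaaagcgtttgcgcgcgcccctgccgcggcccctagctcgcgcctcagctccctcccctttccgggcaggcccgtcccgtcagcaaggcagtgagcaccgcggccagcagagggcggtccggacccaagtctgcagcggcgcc

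The NCAPG window held 1 CHR match, at position -35 from the start, and the NCAPH window held 1 CCAAT match at -112. In the STAG1 window, an E2F match lay at position -183 and a CCAAT match further upstream, and another CCAAT match, not printed, began just after the start. NCAPD2 had 4 CCAAT matches and 1 CHR match, and SMC2, SMC4 and SMC3 had 1 CHR match each at their first listed start. E2F matches were also found at a further listed start of SMC1A (at -20) and of STAG2 (at -51), and STAG2 had CCAAT matches at 2 of its 3 starts. Of 34943 RefSeq promoter windows of the same length, 16.4% held a CHR match, 34.6% a CCAAT match and 3.30% an E2F match. Matches to the CHR and CCAAT letters were thus frequent, and E2F matches were less common. A match describes letters in a window and not a site that is in use. Windows of 9 members were searched.

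The libraries held 52185289 to 65964558 estimated counts on named genes, of which 71.5% to 81.4% lay on protein-coding genes. Values in CPM are counts relative to library size (cpm of edgeR), with library sizes scaled by the TMM method over the genes tested. PRMT5 itself had 94.3 and 84.2 CPM in control and 132 and 150 CPM in the KD-labelled libraries, so its transcript was higher and not lower there (log2 fold change 0.66, standard error 0.12, FDR = 0.00547 from edgeR). Directions are given by the labels, which also state that PRMT5 mRNA and protein were checked by quantitative PCR and immunoblot, measurements that were not analysed here. Without control replicate 2 the PRMT5 call was lost (0.58, FDR = 0.0678). Defining markers of squamous epithelium were nearly absent: of 7 looked at, only TP63 passed the filter, KRT5, KRT6A and CDH1 had at most 9 counts in any library, and EPCAM had 29 to 48. KRT17 had 5 and 6 counts in control and 53 and 71 in the KD-labelled libraries, and KRT14 had 0 in both controls and 11 and 22 in the KD-labelled libraries, and both were called higher without the filter on low counts. TP63 went the other way, from 5.51 and 6.59 CPM to 1.74 and 3.01 CPM (-1.35, FDR = 0.0111), a call lost without either control. The summed level of the 7 genes, most of it TP63 in control, was 6.79 and 7.39 CPM in control and 3.97 and 6.13 CPM in the KD-labelled libraries, and the part of these markers in the results on the subunits was not tested. Of 10 markers of other cell types, 6 passed the filter. COL3A1, PDGFRB and COL1A1, which mark fibroblasts and pericytes, had 124, 98.5 and 88.4 CPM on average in control and were called lower, with log2 fold changes of -5.25, -2.38 and -1.95. MITF and PECAM1 were also called lower and CD68 higher, the last not with the length and GC correction or without control replicate 1. VWF did not pass the filter, with 102 and 205 counts in control and 34 and 15 in the KD-labelled libraries. Without the filter on low counts it was called lower (-2.64, FDR = 0.00159). The immune markers PTPRC, CD3E and CD79A had at most 5 counts. The summed level of these 10 markers was 392 and 483 CPM in control and 194 and 230 CPM in the KD-labelled libraries, and its part in the results on the subunits was not tested.

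The condensin SMC pair was examined first. SMC2, on chromosome 9 of GRCh38 from 104094260 to 104141419 on the plus strand, had 67.2 and 64.9 CPM in control and 203 and 130 CPM in the KD-labelled libraries. The KD-labelled values were above both controls, and they lay far apart from each other. The SD was 1.64 CPM in control and 51.7 CPM in the KD-labelled libraries (n = 2 each), and SMC2 rose by 1.33 on the log2 scale (standard error 0.22, FDR = 0.00464). Without PRMT5 KD replicate 1 it was 1.01 and without PRMT5 KD replicate 2 it was 1.63, and the call held in both. SMC4, on chromosome 3 from 160399274 to 160434954 on the plus strand, had 200 and 133 CPM in control and 307 and 267 CPM in the KD-labelled libraries. The groups did not overlap, but the control libraries differed by more than the KD-labelled ones. Here and below, lack of overlap says little with 2 libraries per group. It also held for the cohesin regulator PDS5A, with a log2 fold change of 0.07 (FDR = 0.606 from edgeR). The share of all genes without overlap was not counted. SMC4 rose by 0.78 on the log2 scale (standard error 0.21, FDR = 0.0222), and the call was lost without control replicate 2 (0.52, FDR = 0.103) and without PRMT5 KD replicate 1 (0.71, FDR = 0.0845).

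NCAPH, the kleisin of condensin I, lies on chromosome 2 from 96335766 to 96377091 on the plus strand. It had 1187 and 1014 counts in control and 5288 and 5724 counts in the KD-labelled libraries, which are 30.0 and 20.3 CPM against 111 and 120 CPM. Its means of 25.1 ± 6.87 CPM and 115 ± 6.08 CPM (SD, n = 2 each) gave a log2 fold change of 2.20 with a standard error of 0.20 (FDR = 0.000588), higher than in 98.3% of the genes tested. NCAPG, one of the HEAT-repeat subunits of condensin I, lies on chromosome 4 from 17810979 to 17844865 on the plus strand. Its level was 52.6 and 36.3 CPM in control and 179 and 182 CPM in the KD-labelled libraries, and the log2 fold change was 2.02 with a standard error of 0.19 (FDR = 0.000577). For NCAPH and NCAPG the lowest KD-labelled library was well above the highest control, and both calls held in each of the 14 alternative fits.

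NCAPD2, the other HEAT-repeat subunit, rose less. It lies on chromosome 12 from 6493356 to 6531955 on the plus strand and had 198 and 167 CPM in control and 300 and 331 CPM in the KD-labelled libraries. The means were 183 ± 21.6 CPM and 316 ± 22.2 CPM (SD, n = 2 each), and the log2 fold change was 0.79 with a standard error of 0.14 (FDR = 0.00401). Control and KD-labelled libraries did not overlap. Without control replicate 2 the log2 fold change was 0.67 and the call was lost (FDR = 0.0553). Without that library 3 of the 5 condensin genes were called, SMC2, NCAPG and NCAPH, and without PRMT5 KD replicate 1 the calls numbered 4, all but SMC4.

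**Figure D1:**
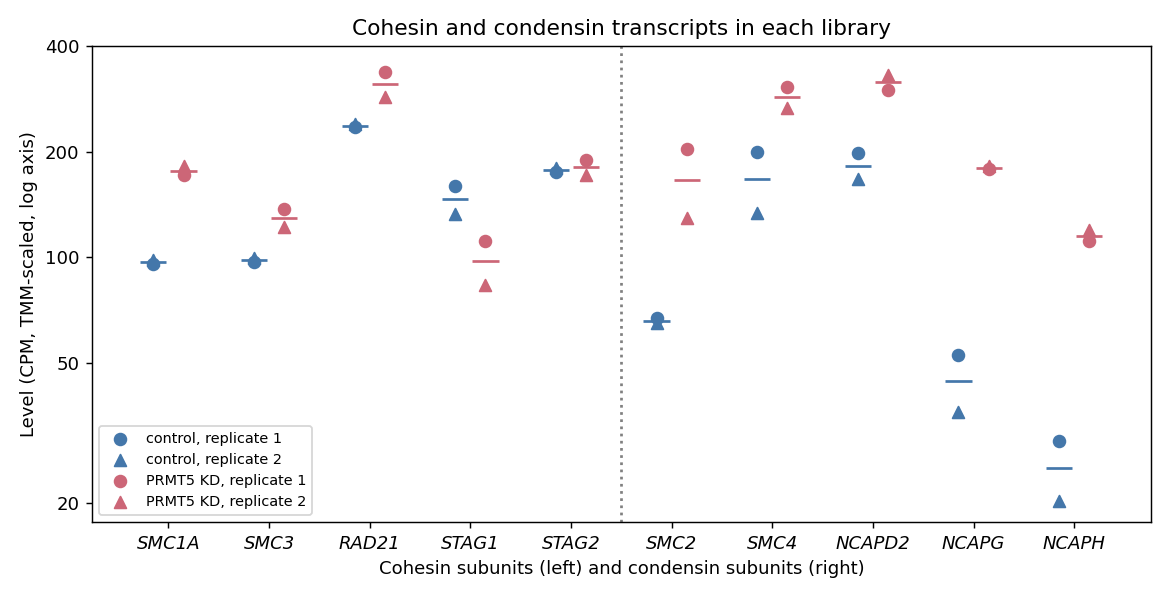
Level of each cohesin subunit (left) and condensin subunit (right) in CPM on a log axis, with a point for each library (circles replicate 1, triangles replicate 2) and a bar at the mean of each group. The condensin points of the KD-labelled libraries lie above both control points of the same gene, NCAPH going from 20.3 and 30.0 to 111 and 120 CPM, while STAG2 points of both groups overlap between 172 and 190 CPM.

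Cohesin's SMC pair moved by unequal amounts. SMC1A, on the X chromosome from 53374149 to 53422728 on the minus strand, had 95.8 and 98.5 CPM in control and 172 and 182 CPM in the KD-labelled libraries. Replicates of each group were close together and the groups were far apart. Its means of 97.2 ± 1.87 CPM and 177 ± 7.08 CPM (SD, n = 2 each) gave a log2 fold change of 0.86 with a standard error of 0.11 (FDR = 0.00125), a call that held in all 14 alternative fits. SMC3, on chromosome 10 from 110567684 to 110606048 on the plus strand, had 97.0 and 99.8 CPM in control and 137 and 122 CPM in the KD-labelled libraries. Control libraries lay below both others, with a log2 fold change of 0.40 (95% confidence interval 0.12 to 0.67, FDR = 0.0251). In the main test SMC3 thus passed the FDR and not the fold change threshold. With a replicate block it passed neither (0.40, FDR = 0.0513 from edgeR).

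RAD21, the kleisin that separase cuts at anaphase, lies on chromosome 8 from 116845934 to 116874776 on the minus strand. It had 235 and 239 CPM in control and 338 and 285 CPM in the KD-labelled libraries. The groups did not overlap, and the KD-labelled libraries were further apart than the controls. Its log2 fold change of 0.39 (95% confidence interval 0.08 to 0.71, FDR = 0.0429) was below the fold change threshold. With a replicate block RAD21 passed neither threshold (0.39, FDR = 0.0677 from edgeR). Without PRMT5 KD replicate 2 RAD21 was called (0.52, FDR = 0.00972), while leaving out PRMT5 KD replicate 1 gave 0.30 (FDR = 0.0876).

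STAG1 and STAG2 are alternative subunits at the same place in the complex, and of their transcripts STAG1 was called lower and STAG2 was not called. STAG1, on chromosome 3 from 136336236 to 136752403 on the minus strand, had 160 and 133 CPM in control and 111 and 83.6 CPM in the KD-labelled libraries. It was the only member with a called decrease in the main test, going from 146 ± 19.3 CPM to 97.4 ± 19.5 CPM (SD, n = 2 each). It fell by 0.59 on the log2 scale with a standard error of 0.17 (FDR = 0.0295), and the groups did not overlap. That call was lost without control replicate 1 (-0.44, FDR = 0.177), without control replicate 2 (-0.71, FDR = 0.0725), without PRMT5 KD replicate 2 (-0.39, FDR = 0.0550) and with total counts alone (-0.41, FDR = 0.0645). STAG2, on the X chromosome from 123960212 to 124422664 on the plus strand, had 175 and 180 CPM in control and 190 and 172 CPM in the KD-labelled libraries. Here the groups overlapped, and the log2 fold change was 0.03 (95% confidence interval -0.24 to 0.30, FDR = 0.855).

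Ratios between subunits within a library do not depend on how libraries are scaled, and were taken on counts per exon length. With 2 libraries against 2, an exact permutation test cannot give a two-sided p below 0.333, so the ratios are given without a test. On the log2 scale STAG2 to STAG1 was -0.89 and -0.59 in control and -0.26 and 0.01 in the KD-labelled libraries, without overlap. With the longest annotated transcript as length the group means were 0.10 and 0.72 instead of -0.74 and -0.12, so which of the 2 was the higher depends on the length used, and the shift of 0.62 does not. SMC3 to SMC1A was -0.50 and -0.50 in control and -0.84 and -1.09 in the KD-labelled libraries. RAD21 to SMC1A, a pair added after its values were seen, went from 0.88 and 0.87 to 0.57 and 0.24. Both ratios were lower in each KD-labelled library than in either control.

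Among the condensin ratios, NCAPH to NCAPD2 moved furthest, from -2.74 and -3.06 in control to -1.45 and -1.49 in the KD-labelled libraries. NCAPG to NCAPD2 went from -1.49 and -1.79 to -0.33 and -0.45. NCAPD2 had the highest level per length of the 3 in each library, and the gap was narrower in the KD-labelled libraries. SMC4 to SMC2 was 1.24 and 0.71 in control and 0.26 and 0.70 in the KD-labelled libraries, where control replicate 2 and PRMT5 KD replicate 2 were nearly equal. Its difference of -0.49 between the means was -0.22 without control replicate 1, -0.27 without PRMT5 KD replicate 1, and -0.76 without control replicate 2. Between the complexes, SMC2 to SMC1A differed by 0.44 between the means, and by 0.07 without PRMT5 KD replicate 1 and 0.80 without PRMT5 KD replicate 2. The summed CPM of the 5 condensin members was 0.718 and 0.563 times that of the 5 cohesin members in control and 1.16 and 1.22 times in the KD-labelled libraries. That sum ratio, chosen after the values were seen, was higher in both KD-labelled libraries than in either control. Unlike the ratios above, it was not taken per exon length, so whether it lies below or above 1 depends on the length used.

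**Figure D2:**
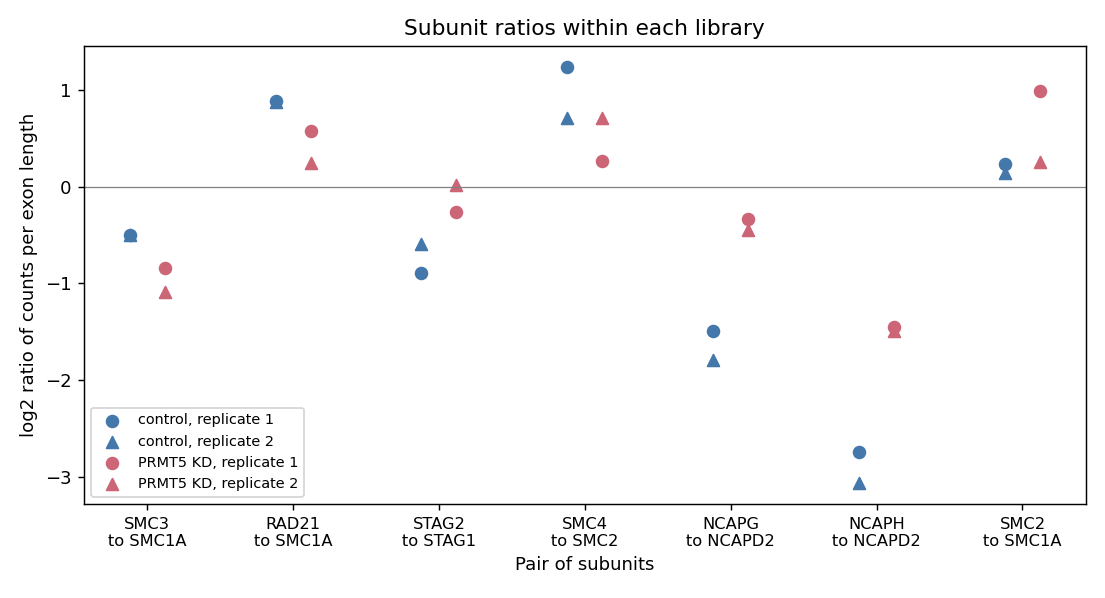
Log2 ratio of counts per union exon length for 7 pairs of subunits, with a point for each library (circles replicate 1, triangles replicate 2; blue control, red PRMT5 KD). NCAPH to NCAPD2 shows the widest gap, about -2.74 and -3.06 in control against -1.45 and -1.49, and for SMC4 to SMC2 a control and a KD-labelled library lie at about 0.70.

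Levels of the members were compared with each other as RPKM, the CPM divided by the union exon length in kilobases. In control, NCAPD2 was highest at 28.2 ± 3.35 RPKM, followed by SMC4 at 20.4 ± 5.76, STAG1 at 18.6 ± 2.46 and RAD21 at 16.5 ± 0.237 RPKM (SD, n = 2 each). STAG2 at 11.1 ± 0.196, SMC2 at 10.2 ± 0.254, NCAPG at 9.17 ± 2.38 and SMC1A at 8.97 ± 0.173 RPKM came next, then SMC3 at 6.35 ± 0.124 and NCAPH at 3.84 ± 1.05 RPKM. Libraries of neighbours in this order overlapped for SMC4 and STAG1, for SMC2 and NCAPG, and for NCAPG and SMC1A. In the KD-labelled libraries NCAPD2 was again highest at 48.8 ± 3.43 RPKM, and NCAPG had moved to second place at 37.2 ± 0.473 RPKM, with its libraries within the range of SMC4 at 35.1 ± 3.45. NCAPH moved from the tenth to the sixth place at 17.6 ± 0.929 RPKM and STAG1 from the third to the eighth at 12.4 ± 2.49 RPKM, where it overlapped STAG2. SMC3 was lowest at 8.36 ± 0.671 RPKM. Its union of exons is 15505 nt against 6607 nt for its longest transcript, and with the latter as length it ranked the sixth in control and the seventh in the KD-labelled libraries. By that length NCAPH went from the tenth to the eighth place, STAG1 from the fifth to the tenth, and NCAPG was the third and not the second in the KD-labelled libraries.

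Fold changes over all genes fell with transcript length, and the members have long transcripts. Genes were divided by their longest annotated transcript into 10 groups of similar size, with group medians that declined from 0.25 among the shortest to -0.36 among the longest on the log2 scale. The members lie in groups 7 to 10, counted from the shortest, with longest transcripts from 4587 nt for NCAPG to 9930 nt for SMC1A. In the group of SMC1A, 8.74% of the genes were called higher and 41.1% lower. When fold changes were corrected for length and GC content, the 5 condensin members and SMC1A kept their calls, and SMC3 (0.68, FDR = 0.00343) and RAD21 (0.64, FDR = 0.00710) were called higher, so that 3 of the 5 cohesin genes were called higher and STAG1 lower. STAG2 had 0.31 under that correction and no call (FDR = 0.0568). The correction used union exon length and not the longest transcript that defines the groups above. These lengths differ widely for SMC3 (15505 against 6607 nt), RAD21 (14382 against 8316 nt) and STAG2 (15987 against 6885 nt). Whether SMC3 and RAD21 would be called with the longest transcript as length was not tested.

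**Figure D3:**
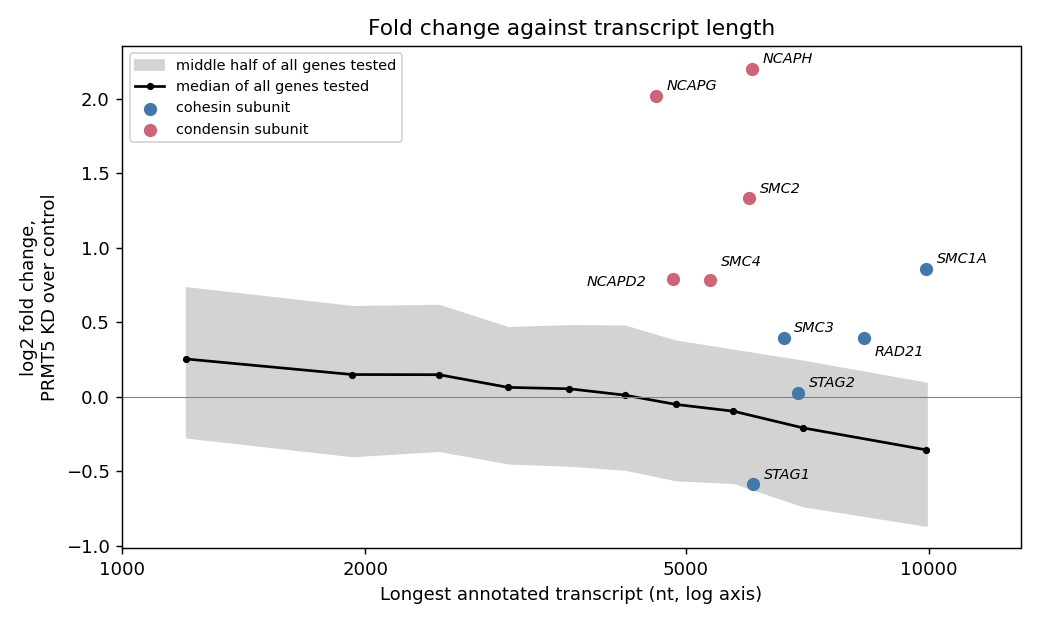
Log2 fold change of the 10 members against their longest annotated transcript in nt (log axis), over the median (line) and interquartile range (grey) of all genes tested in 10 length groups. All condensin members and SMC1A, SMC3 and RAD21 lie above the grey band, STAG2 within it at 0.03, and STAG1 at -0.59 at its lower edge.

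Genes that work with the 2 complexes were counted from lists. The condensin II subunits NCAPH2, NCAPG2 and NCAPD3 were called higher, 3 of 3, against 21.2% called higher over all genes. Their log2 fold changes were 1.52, 1.35 and 1.28 (FDR from 0.000352 to 0.000991). NCAPH2, the kleisin, had 22.1 ± 0.685 CPM in control against 63.3 ± 4.09 CPM (SD, n = 2 each). By union exon length, the summed RPKM of NCAPD2, NCAPG and NCAPH was 2.71 and 2.51 times that of their condensin II counterparts in control. In the KD-labelled libraries it was 2.55 and 2.48 times, a difference between the means smaller than the gap between the control libraries. That comparison depends on the length used, and was not made with the longest transcript. NCAPD3 has 18698 nt of union exons against 10474 nt for its longest transcript. The counterparts taken singly moved in different directions. The RPKM of NCAPH was 0.903 and 0.637 times that of NCAPH2 in control and 1.25 and 1.23 times in the KD-labelled libraries. NCAPG over NCAPG2 was 1.33 and 1.20 in control against 2.10 and 1.95, whereas NCAPD2 over NCAPD3 was 8.23 and 7.55 in control against 5.69 and 5.61. The kleisin and NCAPG ratios were higher, and the NCAPD2 ratio was lower, in each KD-labelled library than in either control. For these single ratios the level depends on the length used, and the direction of the difference does not. All these ratios were chosen after values were seen.

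Of 13 cohesin regulators, 5 were called higher, none was called lower and 8 were not called, against 21.2% called higher and 45.5% called either way over all genes. Those called act on cohesion during S phase and mitosis. ESCO2, an acetyltransferase that acetylates SMC3 during DNA replication, stood at 5.83 and 4.82 CPM in control and at 32.7 and 38.2 CPM in the KD-labelled libraries, an increase of 2.74 on the log2 scale (standard error 0.17, FDR = 0.000240). CDCA5, or sororin, which protects cohesin from release, had a log2 fold change of 2.58 and SGO1, the shugoshin that guards centromeric cohesin, one of 1.82. ESPL1 (separase, the protease that cuts RAD21) and PTTG1 (securin, its inhibitor) had 1.56 and 1.52. Of the regulators that act throughout the cycle, NIPBL and MAU2, which load cohesin, had -0.40 (95% confidence interval -0.66 to -0.13) and 0.39 (0.13 to 0.64), both at an FDR under 0.05 but with too small a fold change to be called. MAU2 was called with total counts alone (0.57, FDR = 0.00534) and with the length and GC correction (0.73, FDR = 0.00231). WAPL, which releases cohesin, had 0.19, and PDS5A, PDS5B, CTCF, ESCO1 and HDAC8 lay between -0.27 and 0.18, with FDR from 0.146 to 0.606. ESCO1, the acetyltransferase active outside S phase, stood at 35.2 and 36.7 CPM in control and at 30.5 and 31.3 CPM in the KD-labelled libraries. Between the ESCO paralogs the difference in fold change was not tested.

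Of the 4 meiotic subunits, SMC1B, RAD21L1 and STAG3 had 0 to 20 counts in every library, and only REC8 passed the filter (-0.21, FDR = 0.477). In the SMC5/6 complex, the related SMC complex of DNA repair, NSMCE4A was called higher (1.35, FDR = 0.000626) and NSMCE1 lower (-0.53, FDR = 0.0437), and the other 5 of its 7 genes were not called, against 45.5% called over all genes. EID3 had the lowest value, -0.87 (FDR = 0.123), and was called lower by DESeq2 (FDR = 0.0280), with the length and GC correction (FDR = 0.0497) and with the crossed replicate block (FDR = 0.00328), but in none of the other 11 refits. SMC5 and SMC6, the SMC pair, had -0.14 and 0.15. NSMCE2 had 0.49 (FDR = 0.0167 from edgeR), just under the fold change threshold. It was called higher with total counts alone (0.67, FDR = 0.00491) and under the other filters. With the length and GC correction it was not called (0.29, FDR = 0.0906). The NSMCE1 call was lost with total counts alone (-0.35, FDR = 0.122), under the other filters, with a replicate block, and when PRMT5 KD replicate 2 or either control was left out (FDR from 0.112 to 0.252). Among 3 partners on the mitotic chromosome axis, 2 were called higher, against 21.2% called higher over all genes. These were TOP2A (0.95, FDR = 0.0190), the topoisomerase that untangles chromatids, and KIF4A (1.41, FDR = 0.00398), a chromosome-bound kinesin. MCPH1, an inhibitor of condensin II, was not called (0.27, FDR = 0.136). With the length and GC correction it was called higher (0.69, FDR = 0.00569), also with a replicate block (0.69, FDR = 0.0165). The TOP2A call was lost without control replicate 2 (0.64, FDR = 0.0615), without PRMT5 KD replicate 1 (FDR = 0.0863) and without PRMT5 KD replicate 2 (FDR = 0.0991).

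**Figure D4:**
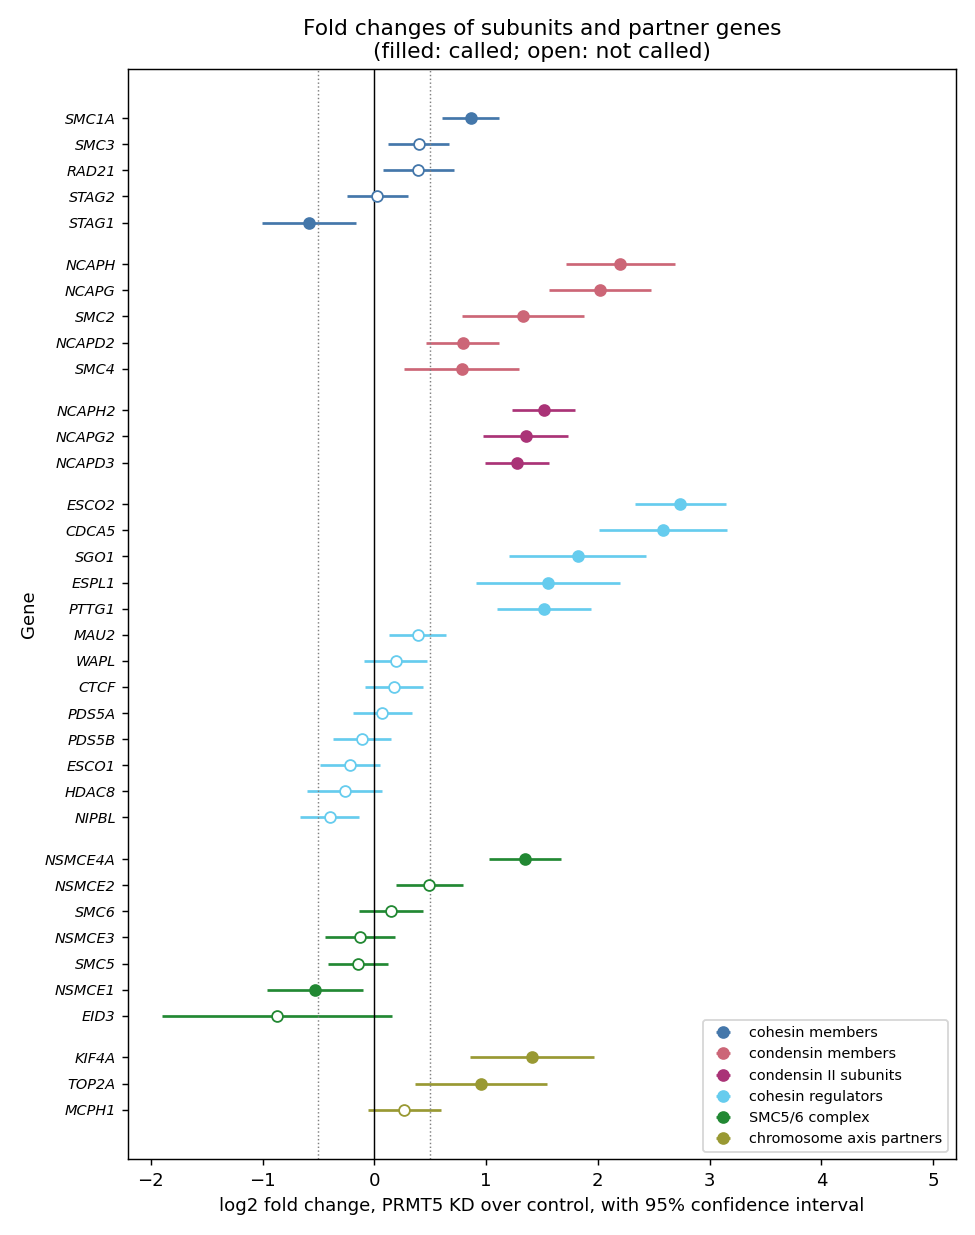
Log2 fold change with 95% confidence interval for the cohesin and condensin members and the partner genes tested, other than the meiotic REC8, grouped and coloured by list, with filled points for called genes and dotted lines at the fold change threshold of 0.5. The points of both condensin groups lie right of the threshold, from 0.78 to 2.20, while those of the cohesin members spread from -0.59 to 0.86. The intervals of SMC4 (0.27 to 1.29) and NCAPD2 (0.46 to 1.12) cross the threshold.

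Markers of proliferating cells moved in the same direction. Their list was chosen with earlier results of these data known, and 21.2% of all genes tested were called higher. All 10 of the genes looked at (MKI67, PCNA, MCM2, MCM6, CCNA2, CCNB1, CDK1, PLK1, BUB1 and AURKB) were called higher, by 1.18 to 2.34 on the log2 scale with a median of 1.77. Of these calls, BUB1 was lost without PRMT5 KD replicate 1 (FDR = 0.180) or PRMT5 KD replicate 2 (FDR = 0.232), and PLK1 without PRMT5 KD replicate 2 (FDR = 0.0588). Their summed level was 701 and 538 CPM in control and 1953 and 1997 CPM in the KD-labelled libraries. In these bulk libraries a larger share of dividing cells and more RNA per dividing cell cannot be told apart, and the part of the proliferation markers in the results on the subunits was not tested. Per summed CPM of these markers, the 5 condensin members stood at 0.781 and 0.785 in control and 0.563 and 0.515 in the KD-labelled libraries, and the 5 cohesin members at 1.09 and 1.39 against 0.485 and 0.423. Both sets, summed, thus rose less than the marker sum in both libraries, a comparison made after the values were seen.

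Some members share exon sequence with a gene on the opposite strand in the annotation. The longest shared stretches were 1661 nt of STAG1 with PCCB, 1634 nt of NCAPG with LCORL, 1553 nt of SMC4 with TRIM59 and 576 nt of RAD21 with UTP23. The library kit keeps strand, and whether the counting used it is not given in the sources used here, so reads in those stretches could have been assigned to either gene. SMC2, SMC3 and NCAPH share no exon sequence with another annotated gene.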

How the data were processed

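Total RNA of 4 libraries (directional kit, Singular Genomics G4) was analysed. The authors deposited estimated counts per gene, not normalized, in 1 table per library. The submitters' processing notes list Trim Galore, STAR, Salmon and DESeq2 on GRCh38 without roles. The paper's methods instead name FeatureCounts on Gencode protein-coding genes. Of 29744 entries per table, 28 had date-like names and were left out. Counts of the same name were summed, rounded and matched to GENCODE 44 (GRCh38) by current symbol, RefSeq gene number or unique synonym, which left 5040 names unmatched and 56 ambiguous. WAPL, SGO1 and NSMCE3 were listed under the older symbols WAPAL, SGOL1 and NDNL2. Protein-coding genes that reached an RPKM of 0.5 in each library of 1 or both groups entered edgeR 4.0.16 (quasi-likelihood, robust, TMM; R 4.3.3), Benjamini-Hochberg adjusted, without a replicate term. Standard errors were derived from the F statistics. Alternatives were DESeq2 1.42.0, other scalings and filters, all gene names (CPM of at least 1), replicate blocks, a length and GC correction (splines on union exon length and GC, 4 degrees of freedom) and leaving out each library. The procedure was tested on simulated counts in which few genes changed, equally up and down and without a trend with length. That setting differs from these data, so it does not bear on the scaling or the calls here. The members and lists were chosen with earlier results of these data known. Named genes are the members, the listed genes and PRMT5. Promoter windows are from RefSeq (GRCh38.p14), with no window used for RAD21. Precision rests on 2 libraries per group.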

Additional observations from a re-analysis of the deposited data

How the results depend on the processing

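Against 5418 genes called, the alternatives that kept all libraries and the threshold gave 5091 to 6314. A fold change threshold of 1 gave 2560 called genes, 3 condensin members (SMC2, NCAPG and NCAPH) and 0 cohesin members, by its own construction. Leaving out each library gave 3108 to 5709 called genes, 3 to 5 condensin members and 1 to 2 cohesin members, with the lowest counts of called genes and condensin members without control replicate 2 and 1 cohesin member without either control. The length and GC correction raised the called cohesin members from 2 to 4 (3 higher, 1 lower), also with a replicate block, and the cause was not tested. STAG2, called in none of these fits, ranged from -0.00761 to 0.10 when a library was left out, with the change of sign without PRMT5 KD replicate 1. Partner genes called ranged from 10 to 15 against 12. In the main test 3 of 3 condensin II subunits, 5 of 13 cohesin regulators and 2 of 3 axis partners were called, all higher. Of 7 SMC5/6 genes 1 was called higher and 1 lower, and the 1 meiotic subunit tested was not called. Over all genes 45.5% were called. All condensin members were higher in every alternative, and NCAPG, NCAPH, SMC2 and SMC1A were called in each of the 14 refits at the threshold of 0.5.

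Across genes, same-numbered libraries deviated from their group means with a correlation of -0.101, so the numbers were not treated as pairs. A replicate block gave 5185 called genes and the crossed pairing, added after the data were seen, 5486, with 5 condensin and 2 cohesin members called in both. With 2 libraries per group, tests for outlying libraries were not applicable.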
